A study of Mus musculus with 22 samples.

Results

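The cytosolic ribosomal protein genes were examined in islets of mice with and without the S64F change in MAFA, a transcription factor of the insulin-producing beta cell. The members were taken by symbol alone, as every Rpl or Rps symbol with a number and at most a short suffix (a, x, l or al), together with Rplp0, Rplp1, Rplp2 and Rpsa. This gave 84 of the 57010 genes in the table, 52 of the large subunit (Rpl) and 32 of the small subunit (Rps). Of these, 81 passed the filter on low values, which asked for 5 or more libraries with TPM of 1 or above, as did 16756 genes in all. TPM, the deposited unit, is an abundance per transcript length, scaled so that every library has the same total. The 3 members that did not pass were Rpl10l, Rpl39l and Rpl3l.

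Each library came from the islets of 1 male mouse, 5.5 weeks old by the sample labels, and was built from polyadenylated RNA. The column headings of the deposited values give a range of 5 to 6 weeks. The labels cross MafA genotype, wild type (WT) or heterozygous for S64F (Het), with background, C57 or Mixed. Each WT group had 5 mice and each Het group 6, and the labels do not give the strains that make up the Mixed background. Library numbers follow the groups in order, and the effects of order and group cannot be told apart.

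A eukaryotic ribosome has a small subunit that decodes the mRNA and a large subunit that joins the amino acids, and each of its proteins is needed in about equal number. The mRNAs of these proteins are among the most abundant of any cell and share a pyrimidine-rich start, through which their translation follows growth signals. Beta cells make large amounts of insulin and so carry a heavy load of translation. Mammalian genomes hold very many processed copies of these genes, intronless and usually silent, that resemble the mRNA closely, so that the same read can fit the gene and a copy.

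That resemblance is described first, because copy rows are set beside several of the largest differences below. Its part in them was not tested beyond sums of rows. In GENCODE M21, a median of 54.5% of the 50-base words in the annotated transcript chosen for a member also occurred in another gene. Which transcripts the islets expressed was not tested. The share ran from 0% to 98.65% (Rps27), and 47 members had over 50%. Across the 78 members with a transcript there that passed the filter, this share and the mean TPM had a Spearman correlation of 0.00. The following stretches of 60 bases are shown for 4 members and a copy whose value moved against theirs in some libraries. Between Mixed WT and Mixed Het, Rpl34 and Rpl34-ps1 both had the higher mean in Het. Each pair differs at the capital letters. Member positions are counted from 1 at the first base of the coding sequence, and the copies are placed on GRCm38, the build of that annotation, not mm39, the build named in the submitters' processing notes.
Rpl26, coding positions 147 to 206: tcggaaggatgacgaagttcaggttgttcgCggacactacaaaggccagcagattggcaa
Gm15772, chr5:3236577-3236636, plus strand: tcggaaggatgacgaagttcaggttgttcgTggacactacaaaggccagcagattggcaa
Rpl30, coding positions 66 to 125: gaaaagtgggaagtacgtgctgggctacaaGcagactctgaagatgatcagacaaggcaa
Gm12191, chr11:49678933-49678992, minus strand: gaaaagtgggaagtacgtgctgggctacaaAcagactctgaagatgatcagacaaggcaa
Rps18, coding positions 324 to 383: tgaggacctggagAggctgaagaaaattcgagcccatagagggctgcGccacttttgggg
Rps18-ps6, chr13:97760206-97760265, minus strand: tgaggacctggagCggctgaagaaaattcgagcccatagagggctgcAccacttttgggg
Rpl34, coding positions 102 to 161: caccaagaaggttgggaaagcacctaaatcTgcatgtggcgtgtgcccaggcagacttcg
Rpl34-ps1, chr6:71124711-71124770, plus strand: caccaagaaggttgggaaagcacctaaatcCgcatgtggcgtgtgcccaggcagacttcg
Over the whole coding sequence, Gm15772 differed from Rpl26 at 2 of 435 bases (C177T and T288C). Gm12191 differed from Rpl30 at 1 of 345 bases (G96A). Rps18-ps6 differed from Rps18 at 4 of 456 bases (T186C, A337C, G371A and G431A), and Rpl34-ps1 from Rpl34 at 2 of 351 bases (T132C and C318G). Rpl3-ps1, a copy on chromosome X, differed from Rpl3 at 2 of 1209 bases (C57A and T786C). All but Rps18-ps6, which GENCODE M21 lists as protein coding, are annotated as processed pseudogenes.

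The start of the transcript is shown for 4 members on GRCm38.p6 from RefSeq, 35 bases before the annotated start and 20 from it. In capitals is the longest run of C and T that reaches within 5 bases of the start. The capitals mark letters only, and how far the run reaches the pyrimidine tract of these mRNAs depends on the annotated start.
Rpl7a, chr2:26910772-26910826, plus strand: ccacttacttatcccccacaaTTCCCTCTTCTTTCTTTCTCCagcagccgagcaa
Rpl14, chr9:120571482-120571536, plus strand: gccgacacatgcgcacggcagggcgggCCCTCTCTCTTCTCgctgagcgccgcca
Rps6, chr4:86857348-86857402, minus strand: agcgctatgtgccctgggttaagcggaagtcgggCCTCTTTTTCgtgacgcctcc
Rplp0, chr5:115559432-115559486, plus strand: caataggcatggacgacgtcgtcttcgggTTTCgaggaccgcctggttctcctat
A run of at least 8 letters C or T was searched on the gene's own strand, reaching within 5 bases of the start. It was held by 24 of the 62 members in that table (38.71%) and by 11.35% of all 27025 genes there. Where a gene had several starts listed, the start with the longest run was kept, for members and all genes alike. The longest among the members was 21 letters, in Rpl7a. Rplp0, with 4, was short by this measure.

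Depth per library is unknown, because TPM keeps none. Mafa itself, in TPM ± SD, stood at 441 ± 87.6 for C57 WT (n = 5), 117 ± 23.2 for C57 Het (n = 6), 598 ± 143 for Mixed WT (n = 5) and 152 ± 37.1 for Mixed Het (n = 6). Summed markers of the other endocrine cells (glucagon, somatostatin and others, 9 genes) ran from 43430 to 85022 TPM in WT and from 99031 to 146454 in Het islets of the C57 background. In Mixed they ran from 43020 to 74782 TPM in WT and from 122559 to 184102 in Het. The 10 beta cell markers summed to between 371599 and 450974 TPM in the C57 WT libraries, against 325251 to 380648 for C57 Het. In Mixed the beta cell sum was between 403277 and 480912 TPM in WT and between 251916 and 343758 in Het. No listed marker was at 0 in every sample. In bulk RNA, fewer cells of a type and less RNA per cell cannot be told apart.

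The levels of the members covered a wide range. Rplp1, an acidic stalk protein, was highest at a mean of 1497 TPM over the 22 libraries, followed by Rpl41, the smallest ribosomal protein, at 954 TPM. Rps15, near the decoding site, was at 924 TPM, Rpl4, a wall of the exit tunnel, at 800 TPM and Rplp0, the stalk base, at 784 TPM. At the low end, Rps10, of the small subunit, stood at 1.92 TPM and Rpl24, of the large subunit, at 2.86 TPM. Rpl13a was at 13.8 TPM and Rps15a at 39.2 TPM. The table lists a copy of Rps10, Rps10-ps2, at 7.20 TPM, higher than the gene. Rpl32l and Rpl6l, which GENCODE M21 annotates as processed pseudogenes, were at 1.15 and 1.13 TPM.

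The spread between mice of a group was small. The median coefficient of variation of the 81 genes was 9.30% in C57 WT, 6.73% in C57 Het, 6.75% in Mixed WT and 7.93% in Mixed Het. Rpl26 in Mixed Het islets had the highest value in that group, 62.4%. Rps10 was the most variable in C57 WT, at 57.1%, and Rpl32l in C57 Het and Mixed WT, at 50.1% and 58.1%.

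**Figure D1:**
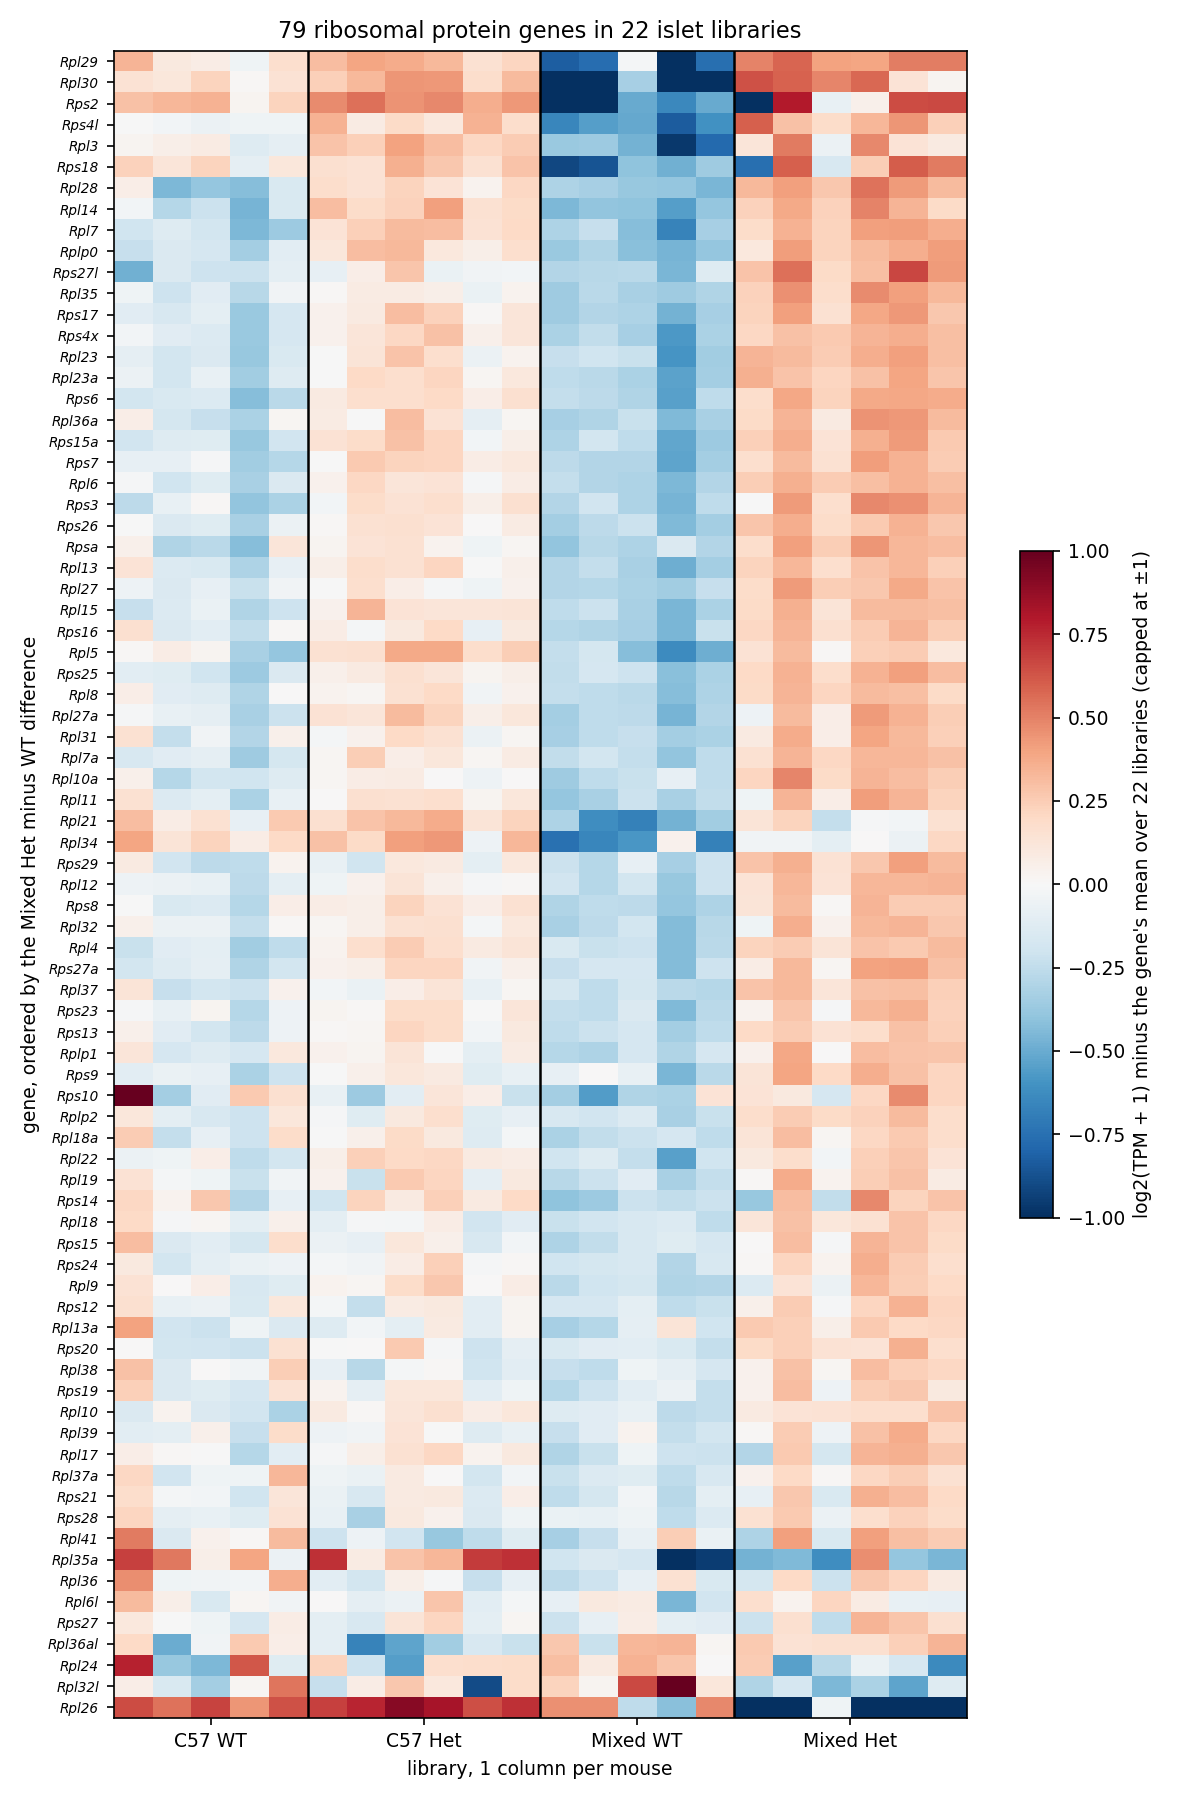
Levels of 79 of the genes that passed the filter (rows) in each of the 22 libraries (columns, grouped), as log2(TPM + 1) minus the gene's mean over all libraries, with colours capped at 1 either way. Most rows are blue in Mixed WT and red in Mixed Het, while Rpl26 at the bottom runs the other way.

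As a share of all TPM, the 84 genes differed between the groups. In C57 WT the 5 libraries held between 1.98% and 2.45% (mean 2.22 ± 0.18%, SD, n = 5), and in C57 Het the 6 held between 2.29% and 2.61% (2.46 ± 0.11%, n = 6), so that the groups overlapped. In Mixed WT the share was between 1.83% and 1.99% (1.91 ± 0.06%, n = 5), and in Mixed Het it was between 2.43% and 2.92% (2.72 ± 0.23%, n = 6). The 2 Mixed groups did not overlap. Mixed WT had the lowest mean share and Mixed Het the highest, with the C57 groups between them.

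The share depended on what it was a share of. Ins1, Ins2 and the mitochondrially encoded genes together took 45.9 ± 3.41% of TPM in WT islets and 35.7 ± 2.27% in Het islets on C57. The same genes took 45.9 ± 3.05% in WT islets and 30.7 ± 3.55% in Het islets on Mixed. With those genes left out of the total, the C57 libraries gave a ribosomal protein share of 4.12 ± 0.43% (WT) and 3.82 ± 0.22% (Het). The Mixed libraries gave 3.54 ± 0.23% (WT) and 3.94 ± 0.43% (Het), with overlapping ranges of 3.26 to 3.80% and 3.22 to 4.43%. On this total the C57 Het mean was below, not above, the C57 WT mean. This total still holds the other endocrine markers, whose sums were higher in Het in both backgrounds. Its make-up thus also differed between genotypes, and it is no neutral scale.

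**Figure D2:**
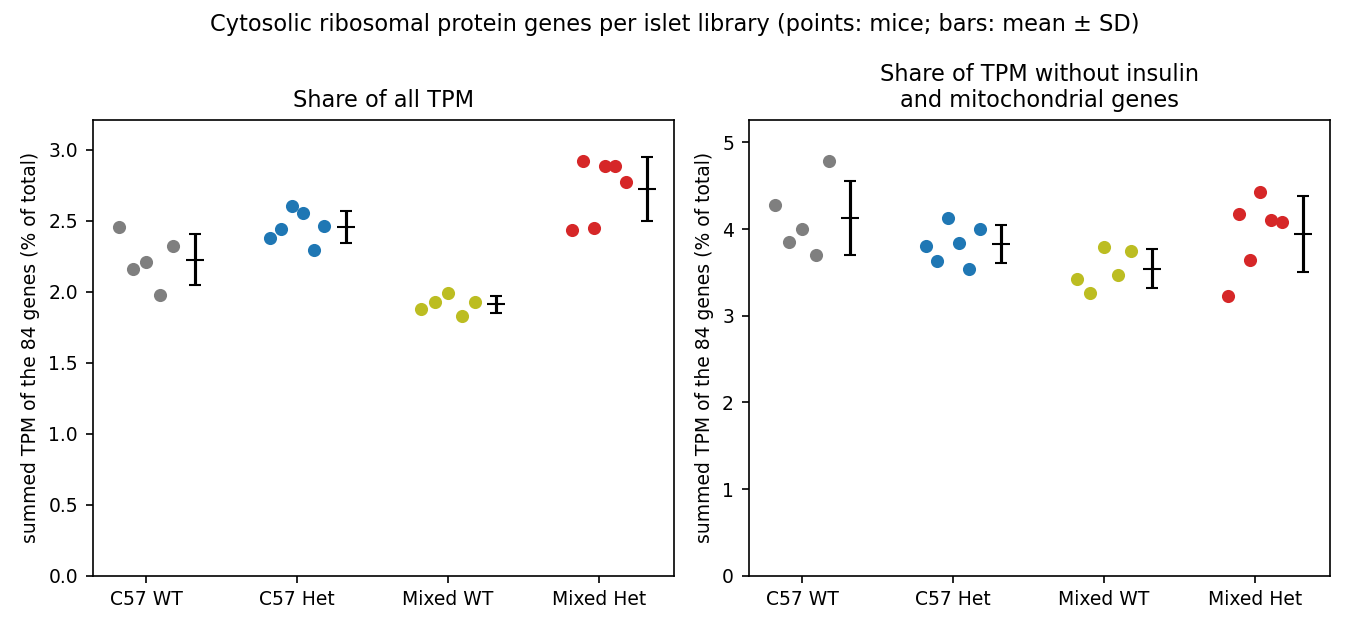
Summed TPM of the 84 genes in each mouse as a percentage of all TPM (left) and of TPM without the insulin and mitochondrially encoded genes (right), by group, with the mean ± SD beside the points. On the left the Mixed WT mice (1.83 to 1.99%) lie below all Mixed Het mice (2.43 to 2.92%), and on the right these groups overlap.

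The first comparison asked what the S64F allele did on the C57 background. Of the 81 genes, 34 rose and 2 fell in C57 Het against C57 WT islets (limma, adjusted p under 0.05), and 45 did not pass. Among all 16756 genes, 26.4% rose and 11.6% fell. The median log2 change was 0.16 for the members and 0.08 for all genes. By subunit, 19 of 49 Rpl genes and 15 of 32 Rps genes rose. Both genes that fell, Rpl41 and Rpl36al, were of the large subunit.

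Rpl7, of the large subunit, rose most. Its values in C57 WT were 211, 223, 214, 177 and 189 TPM, and in C57 Het they ran from 267 to 302 TPM with a median of 283. Every Het library was above every WT library. The log2 change was 0.49 ± 0.08 (SE, adjusted p = 6.3e-05). Rpl14 was at 408, 342, 358, 302 and 374 TPM in WT and between 462 and 555 TPM in Het (median 482), again without overlap, a log2 change of 0.48 ± 0.07 (adjusted p = 5.7e-05). Rpl28 rose by 0.42 ± 0.08, with WT libraries from 275 to 396 TPM and Het libraries from 386 to 441 TPM, so that 1 WT library lay inside the Het range. Rps6, the substrate of the S6 kinases, was at 287, 294, 296, 242 and 269 TPM in WT and from 342 to 373 TPM in Het (log2 change 0.38 ± 0.07, adjusted p = 0.00021). Rplp0 was at 654, 696, 684, 606 and 715 TPM in WT and from 801 to 959 TPM in Het (log2 change 0.38 ± 0.07, adjusted p = 0.00033).

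Rpl41 fell, from 1055 ± 201 TPM (SD, n = 5) in C57 WT to 819 ± 64.1 TPM (n = 6) in C57 Het. The WT libraries ran from 848 to 1347 TPM and the Het libraries from 720 to 908 TPM, so the ranges overlapped. The log2 change was -0.35 ± 0.14 (adjusted p = 0.04995). Rpl36al, a paralogue of Rpl36a, was at 7.001 ± 1.51 TPM in WT and 5.29 ± 0.94 TPM in Het (log2 change -0.34 ± 0.13, adjusted p = 0.047). With the rows that share its sequence added, an alternative chosen after seeing the data, Rpl41 was at -0.17 (adjusted p = 0.34) and Rpl36al at -0.12 (adjusted p = 0.39). With 1 mouse left out in turn, the number of members that fell lay between 0 and 3, and it was 0 or 1 for most of the mice left out.

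In C57, 25 of the 81 genes were higher in every Het library than in any WT library, as were 15.9% of all genes. The number lower in every Het library was 0 (5.04% of all genes). The count in C57 changed with the scaling. With median-of-ratios scaling 8 members rose and 5 fell, where 19.7% of all genes rose and 19.7% fell. With the insulin and mitochondrial genes out of the total 2 rose (Rpl7 at 0.24 and Rpl14 at 0.23) and 10 fell, with a median of -0.09. On that last scale 10.2% of all genes rose and 29.2% fell, and their median was -0.13. Rpl41 then differed by -0.60, Rpl36al by -0.59, Rpl36 by -0.49 and Rpl38 by -0.43.

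The same question was asked on the Mixed background. There 71 of the 81 genes rose and 2 fell in Het against WT islets, where 30.7% of all genes rose and 13.5% fell. The median log2 change was 0.52 for the members and 0.10 for all genes. By subunit, 41 of 49 Rpl genes and 30 of 32 Rps genes rose. The 8 members that did not pass were Rpl24, Rpl35a, Rpl36, Rpl36al, Rpl41, Rpl6l, Rps10 and Rps27. In 62 members every Het library was above every WT library (17.9% of all genes), and in 1, Rpl32l, every Het library was below (5.76% of all genes). Rpl32l, annotated as a processed pseudogene, ran from 1.096 to 3.82 TPM in Mixed WT and from 0.42 to 0.88 TPM in Mixed Het (log2 change -0.77 ± 0.22, adjusted p = 0.0066).

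All 34 genes that rose in C57 also rose in Mixed, and they made up 47.9% of the Mixed list, which held 71 of the 81 members. Among all genes, 63.9% of those that rose in C57 rose in Mixed too, and these made up 55.01% of the genes that rose in Mixed.

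**Figure D3:**
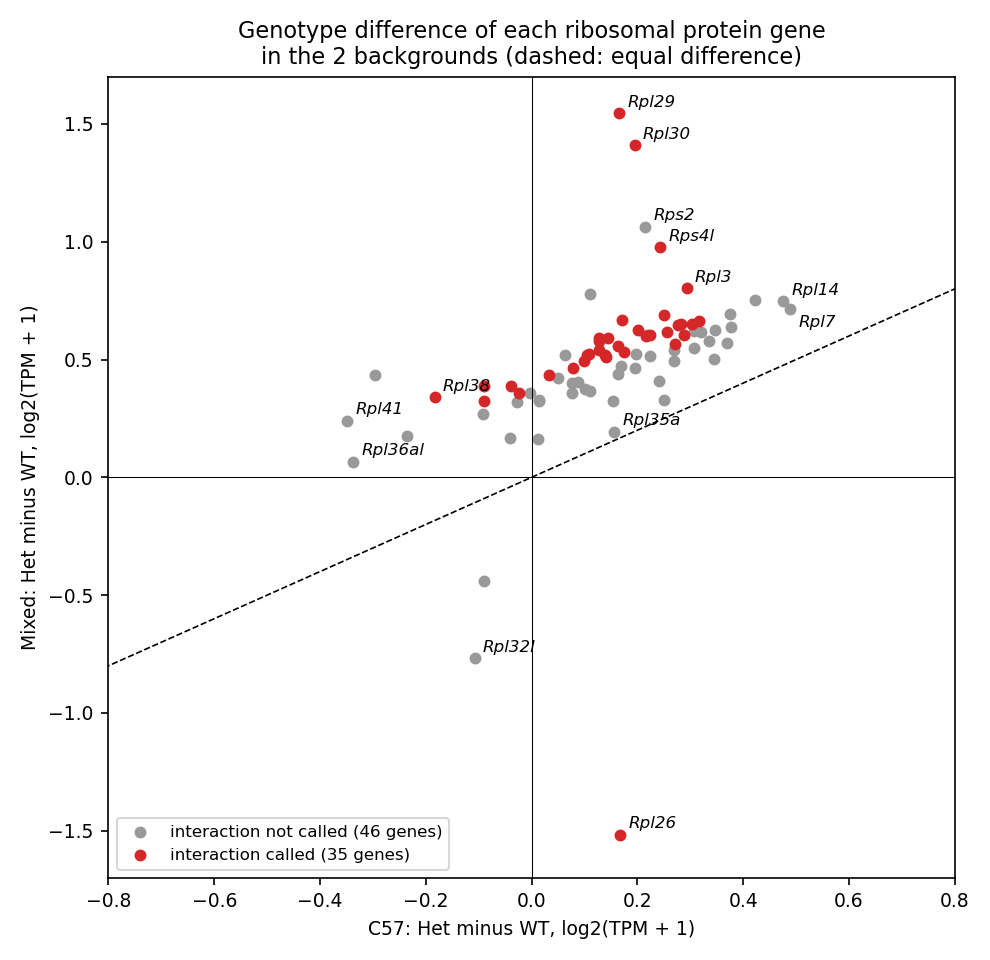
Het minus WT difference of each of the 81 genes on the log2(TPM + 1) scale, in C57 (x axis) and in Mixed (y axis). Points above the dashed line of equal difference had the higher difference in Mixed, which holds for 78 genes, and red marks the 35 genes with a called interaction.

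The mRNAs of 5 proteins of the small subunit, around the decoding site, along the mRNA channel or phosphorylated by the S6 kinases, rose in Mixed, as did most Rps genes. Rps3, at the mRNA entry, averaged 158 ± 11.0 TPM over the 5 WT mice and 244 ± 31.2 TPM over the 6 Het mice, a log2 change of 0.62 ± 0.09. Rps23, which lines the decoding site, went from 325 ± 24.1 to 453 ± 47.0 TPM, a log2 change of 0.47 ± 0.08. Rps15 and Rps28 changed by 0.39 ± 0.09 and 0.27 ± 0.08. Rps6 was at 277, 271, 264, 223 and 273 TPM in Mixed WT and from 367 to 426 TPM in Mixed Het, without overlap (log2 change 0.64 ± 0.07, adjusted p = 1.9e-07). In C57, Rps3 rose by 0.32 ± 0.09, while Rps23, Rps15 and Rps28 did not pass (log2 changes of 0.17, -0.04 and -0.09). With the insulin and mitochondrial genes out of the total, Rps3 (0.26) and Rps6 (0.28) still rose in Mixed. Rps23 (0.11, adjusted p = 0.29), Rps15 (0.03, adjusted p = 0.84) and Rps28 (-0.09, adjusted p = 0.45) did not pass there on that total, and Rps15 and Rps28 fell in C57 (-0.29 and -0.34). The medians of all genes on that total were -0.13 in C57 and -0.21 in Mixed.

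All 3 genes of the stalk that recruits the elongation factors rose in Mixed. Rplp0 was at 595, 623, 574, 556 and 588 TPM in Mixed WT and from 824 to 1028 TPM in Mixed Het (log2 change 0.69 ± 0.07, adjusted p = 1.2e-07). Rplp1 went from 1251 ± 63.4 to 1731 ± 182 TPM and Rplp2 from 161 ± 8.19 to 218 ± 8.68 TPM, log2 changes of 0.46 ± 0.08 and 0.43 ± 0.07. In C57, Rplp0 rose but Rplp1 (0.08 ± 0.08) and Rplp2 (0.03 ± 0.07) did not pass. Rpl12, at the base of the stalk, changed by 0.52 ± 0.06 in Mixed. Among the other proteins that touch the tRNAs, Rpl10 rose by 0.33 ± 0.06 and Rpl10a by 0.53 ± 0.07 in Mixed, and by 0.25 ± 0.06 and 0.17 ± 0.07 in C57. With the insulin and mitochondrial genes out of the total, Rplp0 still rose in Mixed (0.34, adjusted p = 0.0025). Rplp1 (0.10, adjusted p = 0.41), Rplp2 (0.08, adjusted p = 0.45), Rpl12 (0.16, adjusted p = 0.067), Rpl10a (0.17, adjusted p = 0.067) and Rpl10 (-0.03, adjusted p = 0.72) did not pass there. In C57 on that total Rplp2 fell (-0.22), and neither Rpl10 nor Rpl10a was above 0, where the median of all genes was -0.13.

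Rpl5 and Rpl11, which travel with the 5S rRNA and can bind MDM2, an inhibitor of p53, rose in Mixed by 0.57 ± 0.09 and 0.52 ± 0.08. In C57 Rpl5 rose by 0.37 ± 0.09 and Rpl11 did not pass (0.20 ± 0.08, adjusted p = 0.062). Of the proteins of the exit tunnel, Rpl4 rose by 0.50 ± 0.06 in Mixed and 0.34 ± 0.06 in C57. Rpl17 and Rpl39 rose in Mixed by 0.32 ± 0.10 and 0.33 ± 0.08 and did not pass in C57 (0.15 and 0.01). Rps27a, made as a fusion with ubiquitin, rose by 0.49 ± 0.08 in Mixed and 0.27 ± 0.08 in C57. Rpsa, also known as a laminin receptor, rose by 0.60 ± 0.08 and 0.22 ± 0.08. On the total without insulin and mitochondrial genes, Rpl5 still rose in Mixed (0.21, adjusted p = 0.03). Rpl11 (0.17, adjusted p = 0.15), Rpl4 (0.14, adjusted p = 0.089), Rps27a (0.14, adjusted p = 0.2), Rpsa (0.25, adjusted p = 0.054), Rpl17 and Rpl39 (both -0.03) did not pass in Mixed on that total. None of these 7 genes passed in C57 on it, where Rpsa was at -0.03.

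Genes whose loss causes Diamond-Blackfan anaemia in people gave different calls. Rps26 averaged 133 ± 8.13 TPM over the 5 Mixed WT mice and 203 ± 8.91 TPM over the 6 Het mice, with a log2 change of 0.60 ± 0.06. Rps19 changed by 0.33 ± 0.08 in Mixed. On the total without insulin and mitochondrial genes Rps26 was at 0.25 (adjusted p = 0.0035) and Rps19 at -0.02 (adjusted p = 0.85). Rpl35a did not pass in Mixed (0.19 ± 0.21, adjusted p = 0.47, and -0.16 on that total) or in C57 (0.16 ± 0.21, adjusted p = 0.58).

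Several members come as paralogue pairs. Rps4l had the largest change among the paralogues. Its values in Mixed WT were 45.7, 49.0, 50.4, 40.1 and 47.0 TPM, and in Mixed Het they ran from 82.0 to 110 TPM with a median of 89.8. In C57 they were 72.0, 71.0, 69.2, 70.1 and 69.9 TPM in WT and between 76.3 and 92.3 TPM in Het. The Het libraries lay above the WT libraries in both backgrounds, with log2 changes of 0.98 ± 0.07 in Mixed and 0.24 ± 0.07 in C57, the latter -0.01 on the total without insulin and mitochondrial genes. Rps4x, its X-linked relative, changed by 0.65 ± 0.07 and 0.30 ± 0.07. GENCODE M21 annotates Rps4l as a transcribed processed pseudogene on chromosome 6. Rpl36a rose in Mixed by 0.63 ± 0.08 while Rpl36al did not pass there (0.07 ± 0.13). Rps27l, a p53 target, rose by 0.69 ± 0.09 in Mixed and 0.25 ± 0.09 in C57, and Rps27 did not pass in either (0.16 ± 0.10 and 0.01 ± 0.10, the former -0.19 on that total). Rpl22 rose by 0.41 ± 0.08 and 0.24 ± 0.08 (0.06, adjusted p = 0.52, and -0.01 on that total), while Rpl22l1, which the symbol rule leaves out, had log2 changes of 0.01 and -0.01. Rpl10l, an autosomal relative of Rpl10, was listed at 0 in all 22 libraries. Rpl39l averaged 0.010 TPM and Rpl3l, known from heart and skeletal muscle, 0.056 TPM.

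The 5 largest rises in Mixed were Rpl29, Rpl30, Rps2, Rps4l and Rpl3. Rpl29, a large subunit protein, was at 122, 127, 214, 27.1 and 128 TPM in Mixed WT and from 285 to 324 TPM in Mixed Het (log2 change 1.54 ± 0.29, adjusted p = 0.00024). The 11 C57 libraries lay between 209 and 285 TPM. All Het libraries were above all WT libraries, but the 5 Mixed WT values were themselves far apart. With the rows that share its sequence added to it, an alternative chosen after seeing the data, the change was 1.15 ± 0.17.

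Rpl30 (ENSMUSG00000058600, chromosome 15), of the large subunit, moved against the row of its copy Gm12191, shown above, which was chosen after its values were seen. In the 5 Mixed WT libraries Rpl30 was at 58.1, 61.2, 103, 54.9 and 54.9 TPM, and Gm12191 was at 146, 141, 57.5, 114 and 121 TPM. In the 6 Mixed Het libraries Rpl30 was at 202, 196, 183, 194, 143 and 133 TPM, and Gm12191 at 7.15, 4.53, 4.69, 5.84, 110 and 107 TPM. In C57 Rpl30 was between 131 and 177 TPM and Gm12191 between 3.04 and 7.60 TPM in every library. Rpl30 was lowest in the 4 Mixed WT libraries where Gm12191 was highest. Rpl30 rose in Mixed by 1.41 ± 0.13 (adjusted p = 5.4e-08). With the rows of shared sequence added, the difference was 0.22 ± 0.08 (adjusted p = 0.03).

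Rpl26 (ENSMUSG00000060938, chromosome 11), which sits near the tunnel exit, was the canonical member that fell in Mixed, and it did so against its copy Gm15772. In Mixed WT Rpl26 was at 239, 240, 146, 130 and 244 TPM, and Gm15772 at 4.08, 3.99, 195, 178 and 4.63 TPM. In Mixed Het Rpl26 was at 48.8, 59.4, 169, 57.9, 55.9 and 55.2 TPM, and Gm15772 at 473, 563, 236, 560, 582 and 559 TPM. In the C57 libraries Rpl26 lay between 237 and 328 TPM and Gm15772 between 3.26 and 8.21 TPM. Every Mixed library with Gm15772 at 178 TPM or more had Rpl26 below each C57 library. The log2 change of Rpl26 was -1.52 ± 0.23 (adjusted p = 1.9e-05), and with the rows of shared sequence added it was 1.03 ± 0.11 (adjusted p = 2.0e-07), the opposite direction. TPM is divided by each row's length, so such a sum is not a sum of reads.

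Rps2 and Rps18, both annotated on chromosome 17, both had a high copy row in 5 Mixed WT and 3 Mixed Het libraries. Rps2, at the mRNA entry, was at 153, 161, 320, 290 and 321 TPM in Mixed WT, where its copy Rps2-ps10 was at 292, 290, 144, 127 and 144 TPM. In Mixed Het Rps2 was at 177, 789, 432, 472, 717 and 721 TPM and Rps2-ps10 at 426, 2.28, 219, 253, 1.32 and 1.83 TPM. In C57 the copy was between 1.03 and 2.02 TPM. Rps18, near the subunit interface, was at 89.6, 92.3, 127, 121 and 132 TPM in Mixed WT and at 99.7, 256, 151, 201, 258 and 242 TPM in Mixed Het. Its copy Rps18-ps6 was at 96.9, 106, 53.5, 50.0 and 55.3 TPM in Mixed WT and at 123, 0.26, 66.4, 90.2, 0.37 and 0.23 TPM in Mixed Het. For both genes 1 Mixed Het library lay within the Mixed WT range, so the groups overlapped. The log2 change in Mixed was 1.06 ± 0.28 for Rps2 and 0.78 ± 0.18 for Rps18, and 0.63 ± 0.07 and 0.41 ± 0.07 with the rows of shared sequence added.

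Rpl34 and Rpl3, both of the large subunit, had copies that were high in Mixed libraries too. Rpl34 was at 66.2, 70.6, 74.2, 115 and 69.3 TPM in Mixed WT, and Rpl34-ps1 at 60.6, 69.6, 64.6, 0.54 and 69.8 TPM. In Mixed Het Rpl34 was between 104 and 129 TPM and Rpl34-ps1 between 39.2 and 114 TPM. In C57 Rpl34-ps1 was at most 1.89 TPM except in 1 Het library, at 40.6 TPM, the library with the lowest Rpl34 of the C57 Het group (107 TPM). Rpl3, at the peptidyl transferase centre, was at 191, 192, 178, 126 and 144 TPM in Mixed WT, with Rpl3-ps1 at 22.6, 22.4, 19.5, 31.2 and 38.3 TPM. In Mixed Het Rpl3 was at 269, 355, 238, 345, 272 and 263 TPM and Rpl3-ps1 at 33.2, 2.94, 33.1, 2.72, 33.5 and 36.5 TPM. The 2 Mixed Het libraries with the lowest copy values had the highest Rpl3. Rpl3 rose in Mixed by 0.80 ± 0.11, and by 0.70 ± 0.08 with the rows added. The rows of shared sequence moved with these differences, and their part was not tested beyond the sums given.

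**Figure D4:**
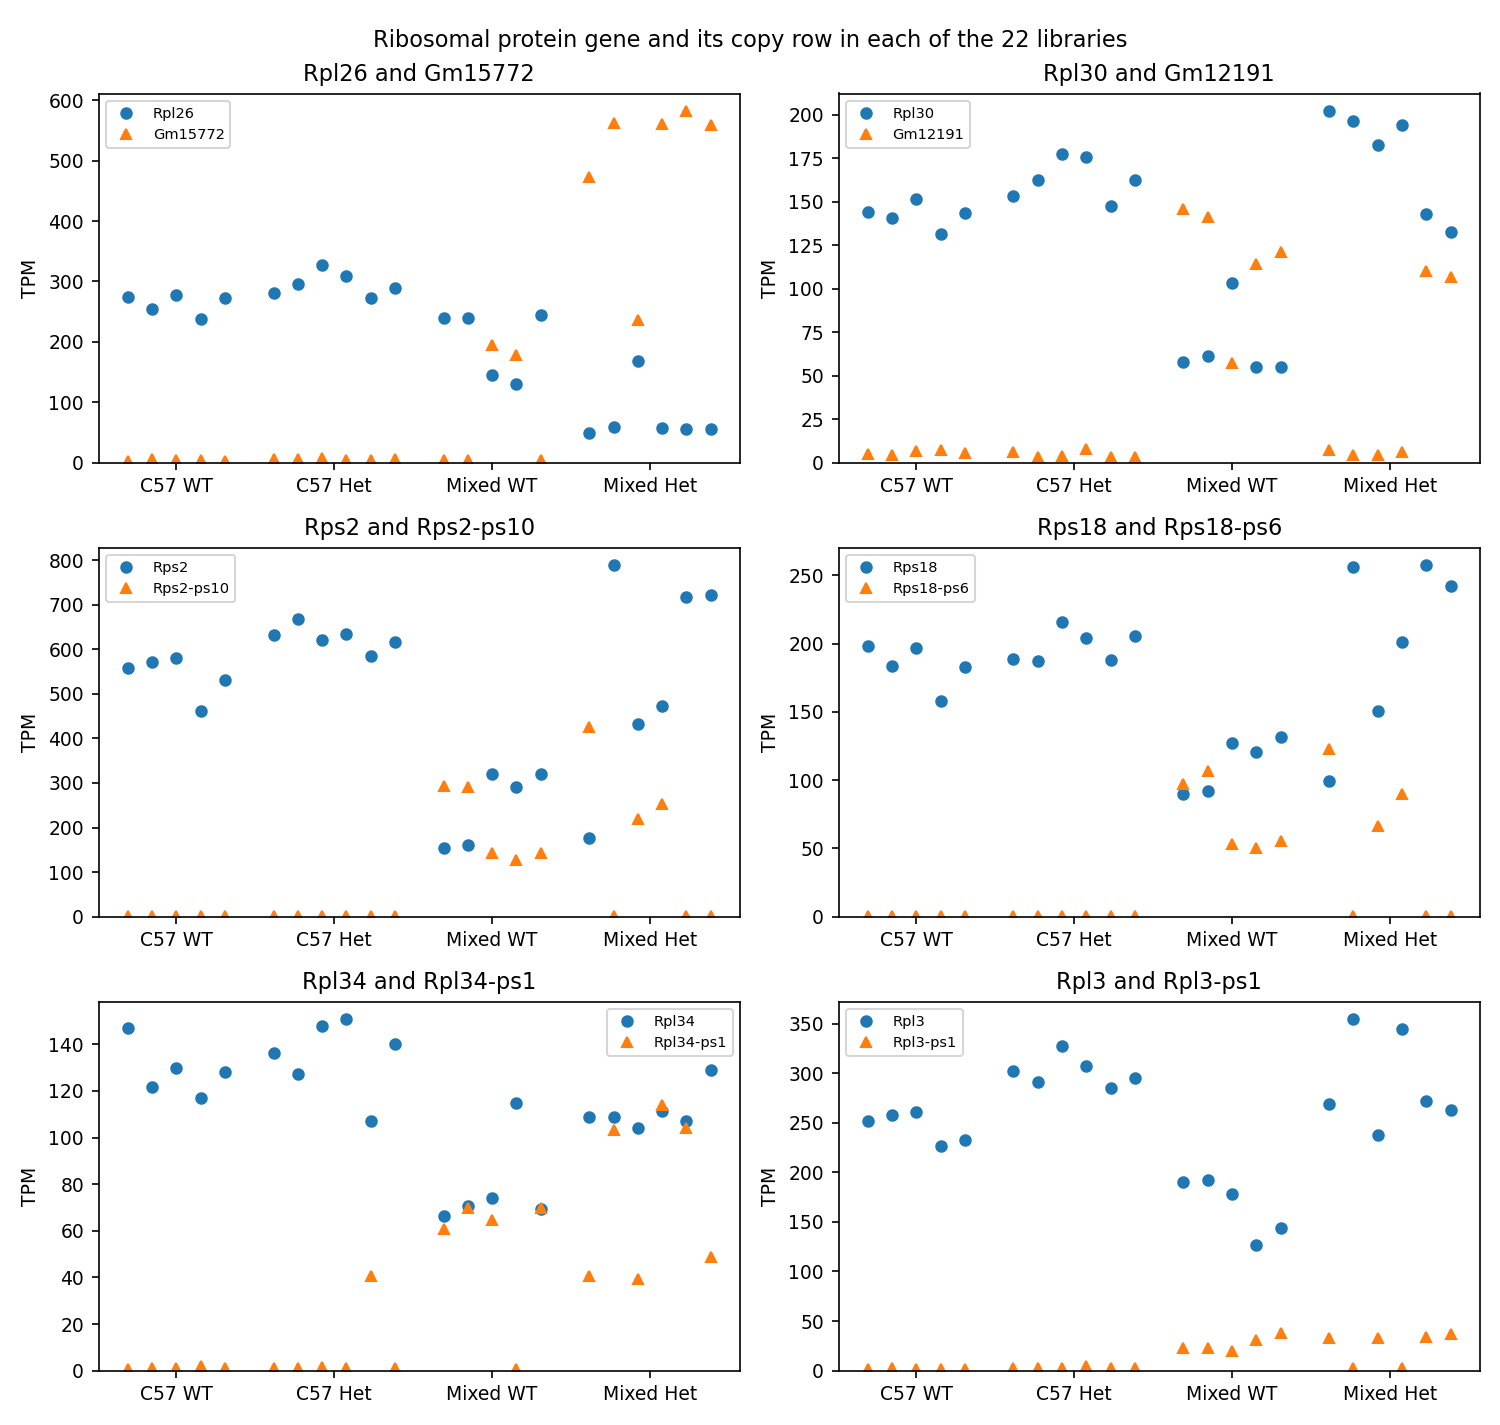
TPM of 6 members (circles) and of a copy row that shares their sequence (triangles) in each of the 22 libraries, grouped along the x axis. In C57 the triangles lie near 0 but for 1 Rpl34-ps1 value of 40.6 TPM, and for Rpl26 each Mixed library with its triangle at 178 TPM or more has its circle below every C57 circle.

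Summing every member with the rows that share its sequence changed the single genes above. Rps4l, Rpl32l and Rpl6l had no protein-coding transcript to search with, so no row was added to them. In Mixed 73 members rose (30.7% of all genes) and 1 fell (13.5%) on this scale, and in C57 34 rose (26.4%) and 0 fell (11.6%), with 1 member lower at an unadjusted limma p under 0.05. The median log2 changes were 0.51 in Mixed and 0.15 in C57.

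With median-of-ratios scaling, 57 members rose and 3 fell in Mixed (21.9% and 22.4% of all genes). With the insulin and mitochondrial genes out of the total, 31 rose and 3 fell, against 9.82% and 40.4% of all genes, and the medians were 0.17 for the members and -0.21 for all genes. Among the 31 that rose, Rpl29 (1.19), Rpl30 (1.06), Rps4l (0.63) and Rpl3 (0.45) led on that scale, and Rpl28 (0.40), Rpl14 (0.39), Rpl7 (0.36) and Rplp0 (0.34) followed. Rps2 was at 0.71 and did not pass (adjusted p = 0.0545). Of the 73 members called in Mixed, 40 did not pass on this total, and 8 of these changed sign: Rpl10, Rpl17, Rpl37a, Rpl38, Rpl39, Rps19, Rps21 and Rps28.

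Members were also compared with each other, as deviations from the mean of the 81 genes in each library. That takes out the members' shared change by construction. The shares of all genes below shift by the same amount and are no background for these counts. In C57, 11 genes were then higher in Het (8.91% of all genes) and 9 lower (18.3% of all genes). In Mixed, 18 were higher (4.52%) and 10 lower (55.6%). Rpl7, Rpl14, Rpl28, Rplp0 and Rps6 were above the mean of the members in C57, by 0.35, 0.33, 0.28, 0.23 and 0.23, and in Mixed by 0.24, 0.27, 0.27, 0.22 and 0.16. Rpl36al, Rpl36, Rps28 and Rpl37a were below it in both, by log2 differences of -0.48, -0.38, -0.23 and -0.23 in C57 and of -0.41, -0.30, -0.21 and -0.16 in Mixed.

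The changes were also set beside the length of the transcript. Across 78 members, transcript length and the log2 change had a Spearman correlation of 0.47 in C57 and 0.39 in Mixed. These points share libraries and length normalisation, and genes are not independent replicates. Length was that of the annotated transcript chosen for each gene, which gave 5130 bases for Rps15a. Which transcripts the islets expressed was not tested. The 14 members with transcripts under 500 bases had a median change of 0.07 in C57 and 0.39 in Mixed, and the 64 longer ones 0.17 and 0.54. Members with a pyrimidine run of at least 8 letters had medians of 0.16 in C57 and 0.51 in Mixed (24 genes), and those with a shorter run 0.17 and 0.52 (35 genes).

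The third comparison was of the genotype difference between the backgrounds. The log2 change was greater in Mixed than in C57 in 78 of 81 members. The interaction was positive and past the threshold in 34 members (4.62% of all genes) and negative in 1 (2.74% of all genes). Its median was 0.36 for the members and 0.02 for all genes. It was largest for Rpl29 (1.38 ± 0.42, adjusted p = 0.046), Rpl30 (1.22 ± 0.19, adjusted p = 0.0012), Rps4l (0.74 ± 0.10, adjusted p = 0.00051), Rpl38 (0.52 ± 0.12, adjusted p = 0.011) and Rpl3 (0.51 ± 0.15, adjusted p = 0.044). Rpl26 was the negative one (-1.68 ± 0.32, adjusted p = 0.0051). With the rows of shared sequence added, the interaction of Rpl30 was 0.07 (adjusted p = 0.74) and no longer passed, and that of Rpl26 was positive (0.86, adjusted p = 0.0032). The other 4 still passed, at 0.98 for Rpl29, 0.74 for Rps4l, 0.51 for Rpl38 and 0.40 for Rpl3. No row was added to Rps4l, so its value says nothing about copies.

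Rpl38, a small protein of the large subunit, had differences of opposite sign in the 2 backgrounds on the TPM scale. It was at 611, 451, 502, 486 and 593 TPM in C57 WT and from 412 to 503 TPM in C57 Het, with a median of 469. In Mixed WT it was at 425, 419, 485, 470 and 444 TPM and in Mixed Het from 506 to 618 TPM, with a median of 582. The C57 groups overlapped and the Mixed groups did not. The difference passed in Mixed (0.34 ± 0.08) but not in C57 (-0.18 ± 0.08, adjusted p = 0.084). With median-of-ratios scaling it passed in C57 (-0.30, adjusted p = 0.033) and not in Mixed (0.20, adjusted p = 0.13). With the insulin and mitochondrial genes out of the total it passed in C57 (-0.43, adjusted p = 0.0028), was at -0.02 in Mixed (adjusted p = 0.9), and its interaction did not pass (0.42, adjusted p = 0.067).

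The count for the interaction changed with the setting. It was positive in 14 members with median-of-ratios scaling (4.64% of all genes) and in 8 with the insulin and mitochondrial genes out of the total (2.76%). Against the mean of the members it was positive in 2 (0.871% of all genes), a scale that takes out the members' shared change by construction. Leaving out 1 mouse gave between 18 and 46. It was 18 without Mixed Het mouse 5, 19 without C57 WT mouse 1, C57 WT mouse 5 or C57 Het mouse 5, 20 without Mixed Het mouse 2, 21 without C57 Het mouse 6 and 22 without C57 Het mouse 1.

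The background itself was compared within each genotype. These contrasts share their samples with the ones above, so each is given on its own. Among WT islets, 0 members were higher in Mixed (6.3% of all genes) and 13 were lower (4.99% of all genes), with a median of -0.18 against 0.01 for all genes. The number higher by limma was 0 at an unadjusted p under 0.05 as well. Rps2 and Rpl29 were lowest, both at -1.19, followed by Rpl30 (-1.13), Rpl35a (-0.83) and Rpl34 (-0.73), and then by Rps18, Rpl21, Rps4l and Rpl3 (-0.72, -0.63, -0.60 and -0.58). The other 4 were Rps16, Rpl13, Rpl18 and Rpl27, at -0.25 to -0.19. With the rows of shared sequence added, Rpl30 was higher in Mixed WT (0.29, adjusted p = 0.03) and neither Rpl34 (0.03, adjusted p = 0.87) nor Rps18 (0.02, adjusted p = 0.9) differed past the threshold. The other 10 were still lower, among them Rpl29 at -0.79, Rpl35a at -0.70 and Rps2 at -0.26. Rps4l is one of these 10, and no row was added to it. Without C57 WT mouse 4, 24 members were lower. In 11 members the 2 WT groups did not overlap, each lower in Mixed (3.21% of all genes), and the number higher in Mixed without overlap was 0 (2.91% of all genes).

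Rpl35a, in the large subunit, was low in Mixed islets of both genotypes. It was at 85.7, 76.7, 55.3, 70.0 and 50.8 TPM in C57 WT and at 46.0, 47.8, 47.0, 24.2 and 26.9 TPM in Mixed WT. In Het islets it ran from 56.2 to 88.6 TPM in C57, with a median of 76.7, and from 34.0 to 73.3 TPM in Mixed, with a median of 38.5. The WT groups did not overlap, and in Het 1 Mixed library, at 73.3 TPM, lay within the C57 range. The log2 difference was -0.83 ± 0.21 in WT and -0.80 ± 0.20 in Het.

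Among Het islets 28 members were higher in Mixed (13.3% of all genes) and 2 lower (7.13% of all genes), with a median of 0.17 against 0.02. Among the highest were Rpl36al (0.55 ± 0.13), Rps27l (0.38 ± 0.09), Rps29 (0.31 ± 0.07) and Rpl35 (0.31 ± 0.06), and the lower ones were Rpl26 (-2.13 ± 0.22, and 0.90 with the rows of shared sequence added) and Rpl35a. The 28 members became 9 with median-of-ratios scaling (12.5% of all genes). They became 15 without C57 Het mouse 5, 16 without C57 Het mouse 1, Mixed Het mouse 2 or Mixed Het mouse 5, and 18 without Mixed Het mouse 4. In 18 members every Mixed Het library was above every C57 Het library (6.56% of all genes), and in 1, Rpl26, below (3.28% of all genes).

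Genes that work with these proteins, in lists chosen with earlier results known, were set beside the members. Beside their counts stand the shares of all genes, of which 26.4% rose and 11.6% fell in C57, and 30.7% rose and 13.5% fell in Mixed. Mitochondrial ribosomal proteins, which build the separate ribosome of mitochondria, were taken by symbol, and 78 genes were tested. Mrpl48-ps, a pseudogene by its name, is among them and rose in Mixed (0.83). Of the 78, 16 rose (20.5%) and 2 fell in C57 and 54 rose (69.2%) and 1 fell in Mixed, with medians of 0.08 and 0.29. Of 43 translation factors, 31 rose in C57 (72.1%) and 34 in Mixed (79.1%), with medians of 0.36 and 0.39. Eef1a2, the elongation factor 1A of muscle, neurons and islets, changed by 1.18 in C57 and 2.39 in Mixed, and Eef1a1, its ubiquitous relative, by 0.72 and 0.76. Of 64 ribosome biogenesis genes, 24 rose in C57 (37.5%), and 25 rose (39.1%) and 4 fell in Mixed, with medians of 0.17 and 0.18. Npm1, a nucleolar chaperone, rose by 0.52 and 0.72, and Noc4l, a nucleolar assembly factor, fell in Mixed (-0.54). For the interaction, 11 of the mitochondrial ribosomal genes, Mrpl48-ps among them, and 6 of the translation factors were positive past the threshold (14.1% and 14.0%). Beside them stand the 34 of 81 members and 4.62% of all genes. The medians of the interaction were 0.24 for the mitochondrial ribosomal proteins, 0.04 for the translation factors and 0.01 for the biogenesis genes. With the insulin and mitochondrial genes out of the total, the medians in C57 and Mixed were -0.16 and -0.04 for the mitochondrial ribosomal proteins, 0.11 and 0.06 for the translation factors and -0.07 and -0.16 for the biogenesis genes, beside -0.09 and 0.17 for the members.

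Other genes of the cytosolic ribosome that the symbol rule leaves out were measured beside them, 7 of 8 past the filter. Rps3a1 rose by 0.48 in C57 and 0.72 in Mixed, and Rack1, the scaffold on the small subunit head, by 0.41 and 0.64. Fau, which encodes RPS30, rose in Mixed (0.36) and did not pass in C57 (-0.05). Of 21 growth control genes, 10 rose (47.6%) and 1 fell in C57 and 6 rose (28.6%) and 2 fell in Mixed, the latter near the share of all genes. Eif4ebp1, an inhibitor of cap-dependent translation, rose by 1.14 and 1.16, and Rps6kb2, an S6 kinase, fell in both (-0.48 and -0.38). Of 15 ribosome quality control genes, 9 rose in each background (60%), among them Hbs1l, a rescue factor of stalled ribosomes, by 0.79 and 0.64. On the total without insulin and mitochondrial genes the medians in Mixed were -0.28 for growth control and -0.07 for quality control.

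**Figure D5:**
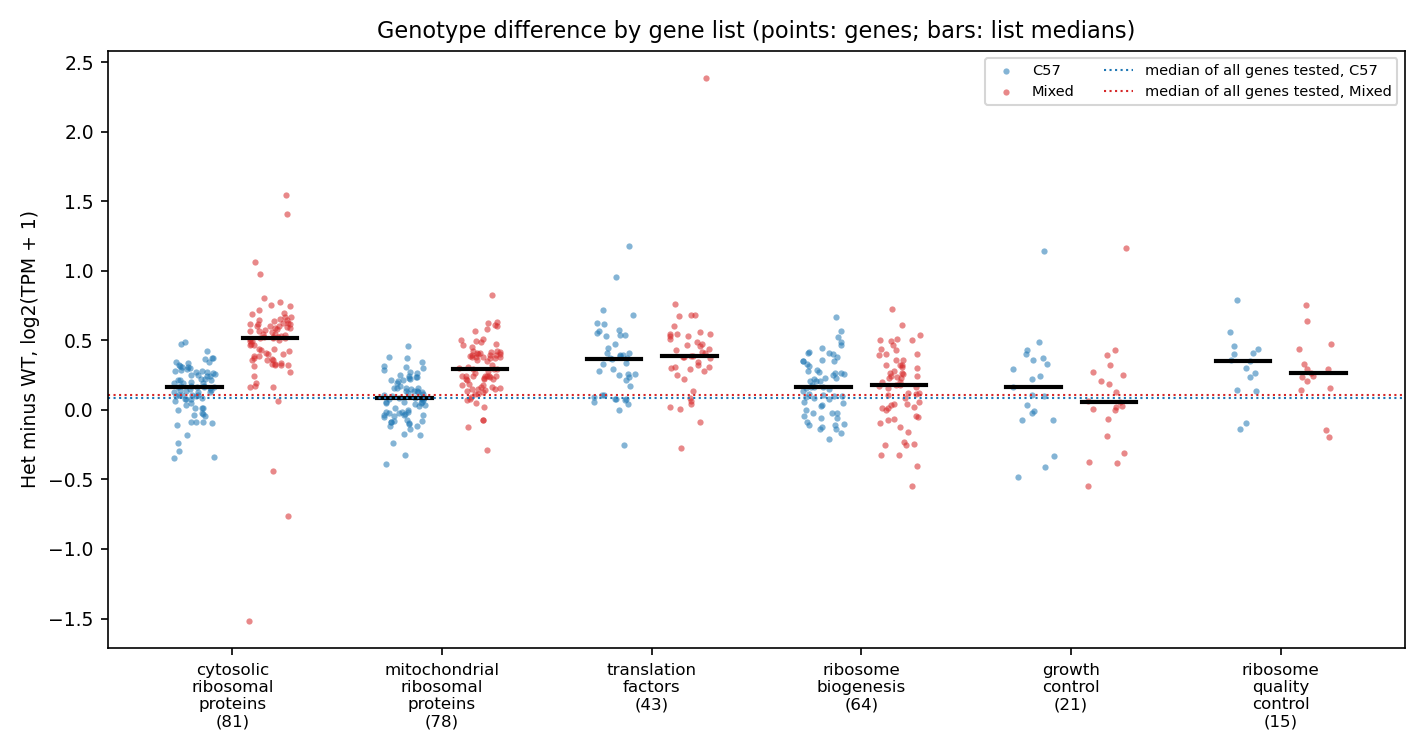
Het minus WT difference on the log2(TPM + 1) scale for the genes of each list, C57 in blue and Mixed in red, with list medians as black bars and the medians of all 16756 genes as dotted lines. The members' medians are 0.16 and 0.52, and the medians of the translation factors are 0.36 and 0.39.

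Markers of other cells moved with some of these counts. In Mixed, 5 of 5 tested immune markers and 5 of 6 mesenchymal markers rose with the S64F allele, and their sums ran from 109 to 157 TPM and from 31.3 to 62.6 TPM in WT and from 162 to 333 TPM and from 57.8 to 365 TPM in Het. In C57 the immune sums ran from 112 to 178 TPM in WT and from 111 to 147 TPM in Het, and the mesenchymal sums from 34.3 to 89.8 and from 39.8 to 64.6 TPM. There 8 of 8 acinar markers rose, with sums of 229 to 410 TPM in WT and 306 to 1750 TPM in Het. The acinar sums in Mixed ran from 187 to 888 TPM in WT and from 671 to 1278 TPM in Het, and 2 of 8 rose. Of 6 endothelial markers 3 fell in C57 (median -0.37), with sums of 301 to 744 TPM in WT and 291 to 359 TPM in Het, and 0 passed in Mixed by limma. Of 5 tested ductal markers 2 rose in C57 (median 0.49), and 3 rose and 1 fell in Mixed (median 0.99). Their sums in Mixed ran from 613 to 1784 TPM in WT and from 798 to 1277 TPM in Het. Of the 10 beta cell markers, 1 rose and 2 fell in C57 and 7 fell in Mixed. Of the other endocrine markers, 6 of 9 rose in C57 and 7 of 9 in Mixed. With the score of the other endocrine markers as a covariate, 9 members rose in C57 (6.55% of all genes) and 48 in Mixed (5.36%), and the medians were 0.17 and 0.52. The sums of these markers did not overlap between WT and Het in either background. The covariate is thus hard to tell apart from genotype, and this fit cannot show its part. With the acinar score as a covariate, 20 rose in C57 (14.4% of all genes) and 71 in Mixed (24.1%). The part of the immune, mesenchymal, endothelial and ductal markers in the result was not tested.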

How the data were processed

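Polyadenylated RNA of islets from 22 mice was sequenced, and the authors deposited 1 table of TPM values per gene and library. The submitters' processing notes name STAR 2.7.10b, MultiQC 1.7 and mm39. The counting tool, the annotation and the treatment of reads that fit several places are not given in the sources used here. Each library sums to 1000000 TPM, so a fall of abundant genes raises all others, and depth is unknown. All value columns were mapped to a sample by title.

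From the deposited TPM, log2(TPM + 1) was fitted with limma 3.58.1 in R 4.3.3 (4 group means, all 22 mice, eBayes with trend) over the 16756 genes that reached TPM 1 in 5 or more libraries. P-values were Benjamini-Hochberg adjusted over those genes, at a threshold of 0.05. Log2 changes are on the log2(TPM + 1) scale with their SE, which understates the change of low genes, and TPM levels carry the SD over mice. The fit was tested on simulated data in which 200 of 16756 genes were changed by a log2 of 1. Of these, 88% were recovered for the C57 contrast and 91% for the Mixed contrast, with 6.38% and 3.19% of calls false. In the deposited data the members' median log2 changes were 0.16 and 0.52, and 26.4% and 30.7% of all genes rose. The recovery of changes of that size, or with that many genes changed, was not tested, nor was the share of false calls.

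Genes were named by rule: the 5 largest changes each way per contrast past the threshold, the 5 highest and lowest mean levels, genes of fixed functional roles, up to 3 each way from each related list, and Mafa. Copies with a Gm name, and Rps18, Rpl21, Rpl28, Rpl36, Rpl37a, Rps16, Rpl13, Rpl18 and Rpl27 where outside that rule, were named after their values were seen. The members and all lists were chosen with earlier results of these data known. Single values of a few genes are not reported here.

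All 84 member IDs were in GENCODE M21 (52029 of 57010 IDs matched), 81 with a protein-coding transcript, and 62 were in the RefSeq start-site table. For each gene the annotated principal transcript was chosen, then the best supported, then the longest coding region, then the shortest transcript. A row was taken to share a member's sequence where at least 25% of its own 50-base words occurred in the member; there were 391 such rows, 29 with a mean of at least 5 TPM. Alternatives covered the pseudocount, filter, scaling, samples fitted, marker scores as covariates, eBayes trend, sample weights, sums with copies and each mouse left out.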

Additional observations from a re-analysis of the deposited data

Results flagged for a closer look

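Among 175 combinations of a member and a group, 11 had 1 mouse apart from the others by Dixon's 95% limit (6.29%, where chance gives about 1 in 20). In Mixed WT, mouse 4 was lowest for Rps27a (195.4 TPM), Rps4x (338.8 TPM) and Rps6 (223.3 TPM) and highest for Rpl34 (114.7 TPM), and mouse 3 was highest for Rpl30 (103.1 TPM). In Mixed Het, mouse 3 was highest for Rpl26 (168.6 TPM) and lowest for Rps28 (139.5 TPM), mouse 4 was highest for Rpl35a (73.33 TPM), and mouse 6 was highest for Rpl34 (128.9 TPM). In C57 Het, mouse 4 was highest for Rpl6l (1.564 TPM). In C57 WT, mouse 4 was lowest for Rpl12 (117.5 TPM). For Rpl26, Rpl30 and the Mixed WT value of Rpl34, the copy row moved the other way in that mouse: Gm15772 was at 236 TPM, the lowest of its group, Gm12191 at 57.5 TPM and Rpl34-ps1 at 0.54 TPM. Its part was not tested beyond the sums given in the results.

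The genotype effect differed between the backgrounds, by the limma interaction, upward in 34 members (4.62% of all genes) and downward in 1 (2.74%). The number upward was 14 with median-of-ratios scaling (4.64% of all genes). It was 8 with the insulin and mitochondrial genes out of the total (2.76%). The log2 interaction was 1.38 for Rpl29, 1.22 for Rpl30, 0.74 for Rps4l, 0.52 for Rpl38 and 0.51 for Rpl3, and -1.68 for Rpl26. With the rows of shared sequence added, Rpl30 was at 0.07 (adjusted p = 0.74) and Rpl26 at 0.86 (adjusted p = 0.0032).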

How the results depend on the processing

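Of 68 single-gene results, 16 kept their direction and their side of the threshold under every alternative. Among them were Rpl7 and Rpl14 in C57 and Rpl3, Rpl30, Rplp0, Rps4x, Rps6 and Rps26 in Mixed. Their size could still change, and with the rows of shared sequence added Rpl30 was at 0.22 in Mixed, far below its main value. Of 2509 single-gene values under alternatives, 2232 kept both, 250 kept the direction but not the call, and 27 changed sign. Of 368 counts, 283 stayed within 1.5 times. Below, counts are of members higher or lower, and the cause of each change was not tested unless the alternative itself removes genes or samples. The counts below stand without the shares of all genes, so alone they do not set the members apart from a shift of all genes. Values relative to the ribosomal protein mean have the members' shared change taken out by construction.

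Het against WT in C57 gave, with median-of-ratios scaling, 8 higher and 5 lower, and gave 19 and 5 with quantile normalization, and 11 and 5 with a total without genes over 1%. It gave 2 and 10 (median -0.0861) with a total without insulin and mitochondrial genes, and 11 and 9 relative to the ribosomal protein mean. With the acinar score as covariate it gave 20 and 0, and with the other endocrine score 9 and 0. The number lower was 0 with no filter, with sample weights and summed with rows of shared sequence, and 1 without the eBayes trend and with the samples of the contrast alone.

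Het against WT in Mixed gave 31 higher with a total without insulin and mitochondrial genes, and 18 higher and 10 lower relative to the ribosomal protein mean. The number lower was 1 with either covariate, with a mean TPM of at least 5 and summed with rows of shared sequence.

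The interaction was positive in 14 members with median-of-ratios scaling, 21 with quantile normalization or a total without genes over 1%, 8 with a total without insulin and mitochondrial genes, 18 with no filter and 62 with sample weights. It was positive in 2 and negative in 2 relative to the ribosomal protein mean, and negative in 0 summed with rows of shared sequence.

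Between WT groups, 29 members were lower in Mixed with quantile normalization, 24 with a total without genes over 1% and 7 with the samples of the contrast alone. With quantile normalization the median was -0.22 for the members and -0.02 for all genes. With the total without genes over 1% these medians were -0.23 and -0.03. Also between WT groups, 4 were higher (median 0.0464) relative to the ribosomal protein mean and 1 summed with rows of shared sequence. Between Het groups, 9 were higher in Mixed with median-of-ratios scaling, 7 higher and 4 lower with quantile normalization, 9 and 4 with a total without genes over 1%, 4 and 4 with a total without insulin and mitochondrial genes, 6 and 4 relative to the ribosomal protein mean, 57 and 4 with sample weights, and 1 lower summed with rows of shared sequence.

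The sign of genes named for a contrast changed with a total without insulin and mitochondrial genes in C57 for Rpl10a (-0.0753), Rpsa (-0.0324), Rps26 (-0.0269), Rpl22 (-0.0070), Rps4l (-0.0054) and Rpl10 (-0.0006). Over all members it changed in 11 of 36 called in C57 and 8 of 73 called in Mixed. Named in Mixed were Rps28 (-0.0853), Rpl17 (-0.0349), Rpl10 (-0.0301), Rpl39 (-0.0299) and Rps19 (-0.0240), and Rpl38, named for its interaction, was at -0.0182 there. Relative to the ribosomal protein mean it changed in Mixed for Rps28 (-0.2070), Rpl17 (-0.1553), Rpl39 (-0.1522), Rpl10 (-0.1502), Rps19 (-0.1483), Rps15 (-0.0900), Rpl22 (-0.0674), Rplp2 (-0.0448), Rplp1 (-0.0149) and Rps23 (-0.0058). Summed with rows of shared sequence, Rpl26 was at 1.03 in Mixed, 0.86 for the interaction and 0.90 between Het groups, Rpl30 at 0.29, Rpl34 at 0.0344 and Rps18 at 0.0197 between WT groups. Summed with named pseudogenes, Rpl34 was at 0.0343 and Rps18 at 0.0202. The interaction of Rpl30 lost its call with rows of shared sequence (0.0691).

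With 1 mouse left out in turn, the members higher and lower ranged from 28 to 36 and from 0 to 3 in C57, and from 71 to 72 and from 2 to 3 in Mixed. For the interaction they ranged from 18 to 46 and stayed at 1. Between WT groups they stayed at 0 and ranged from 9 to 24, and between Het groups from 15 to 36 and from 2 to 3. The interaction could not be fitted with the samples of 1 contrast alone. No paired analysis was possible because the labels give no replicate numbers shared between the groups. TPM keeps no depth, so no counting error was set beside any value, and sums of TPM over a gene and its copies are not sums of reads.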
